A study of Mus musculus with 12 samples.

Results

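Slc4a1, Alas2 and Bpgm are 3 genes of the red cell, measured here in lung tissue of mice that breathed on their own or were mechanically ventilated. They were chosen on their own signals on these arrays, which were lower after ventilation, so every ventilation value below is a description and carries no test. Of the 12394 genes to which the platform annotation gives a probe set of their own, these 3 hold 7 of the 22690 probe sets, 3 for Slc4a1, 1 for Alas2 and 3 for Bpgm, and all were taken. A probe set is a group of short probes for 1 transcript, and its signal summarises the brightness of those probes on a linear scale.

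All mice were of the CD-1/ICR strain and differed in Nrf2, the transcription factor encoded by Nfe2l2 that switches on antioxidant genes. The 4 groups, with 3 arrays each, were Nrf2-/- lungs after 2 h of mechanical ventilation at a high tidal volume of 30 ml/kg (HVT), Nrf2-/- lungs after 2 h of spontaneous ventilation (SpV), Nrf2+/+ lungs after HVT and Nrf2+/+ lungs after SpV. The labels do not give the age of the mice or the part of Nfe2l2 that was removed, and do not say that arrays of a group are separate animals, so a p-value measures the spread between these arrays, which may be technical. The source is given as whole lung for array 1 of the Nrf2+/+ SpV group and as a left lobe for the remaining 11 arrays.

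Mature red cells have no nucleus, but reticulocytes, the youngest red cells in blood, still carry messenger RNA for haemoglobin, membrane proteins and heme synthesis. The lung receives the whole output of the right heart, and lung tissue therefore contains blood unless it is flushed. Alas2 is the erythroid 5-aminolevulinate synthase, which catalyses the first and rate-limiting step of heme synthesis in erythroid cells. Slc4a1 encodes band 3, the chloride and bicarbonate exchanger that also anchors the red cell membrane to its skeleton. Bpgm makes 2,3-bisphosphoglycerate, which lowers the oxygen affinity of haemoglobin. In lung tissue, fewer red cells and less of these RNAs per red cell cannot be told apart.

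In the GRCm38.p6 annotation Slc4a1 lies on chromosome 11 (102348820 to 102365281), Alas2 on chromosome X (150547417 to 150570622) and Bpgm on chromosome 6 (34476356 to 34505136). RefSeq promoters in that build, from 250 bases before to 50 bases after the gene start, were matched for 2 of the 3 genes. They are shown so that motifs of erythroid factors and of Nrf2 near the gene starts can be read directly. The window of Alas2 is chrX:150547167-150547466 and that of Bpgm is chr6:34476106-34476405, both on the plus strand, and capitals mark any match to the motifs searched.
Alas2: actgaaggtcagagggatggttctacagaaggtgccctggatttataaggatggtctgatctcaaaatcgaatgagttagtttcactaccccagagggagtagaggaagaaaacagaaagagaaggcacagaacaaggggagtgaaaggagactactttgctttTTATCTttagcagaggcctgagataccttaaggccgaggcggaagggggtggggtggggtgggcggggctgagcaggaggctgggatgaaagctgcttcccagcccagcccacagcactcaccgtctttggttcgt
Bpgm: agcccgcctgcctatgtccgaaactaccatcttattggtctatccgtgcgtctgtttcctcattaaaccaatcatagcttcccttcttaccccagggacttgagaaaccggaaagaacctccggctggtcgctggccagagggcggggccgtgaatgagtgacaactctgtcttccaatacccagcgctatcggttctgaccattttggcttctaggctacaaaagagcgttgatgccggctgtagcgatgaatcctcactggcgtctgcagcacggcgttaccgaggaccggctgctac

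The motifs searched on both strands were AGATAA and TGATAA, which GATA factors such as the erythroid Gata1 can bind, CACACCC, a box of the kind that Klf1 binds, and TGACNNNGC, the core of the element that Nrf2 binds. AGATAA and TGATAA share the letters GATAA. The Alas2 window held 1 match, AGATAA on the minus strand, beginning 86 bases before the gene start, and the Bpgm window held 0. Among 32851 RefSeq promoter windows of that length, 11.2% held AGATAA, 9.05% TGATAA, 7.95% CACACCC and 12.4% TGACNNNGC. A match describes letters only, and a window without one says nothing about the factor.

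Before comparison each array was scaled to a trimmed mean signal of 500 and the 12 arrays were quantile normalized. Of the 7 probe sets, 6 reached a scaled signal of 100 on at least 3 arrays and entered the fit with 15855 probe sets in all. The seventh, 1431743_a_at for Slc4a1, had normalized signals between 1.1 and 26.5 and is not used further. Nfe2l2, the targeted gene, had normalized signals of 36.2 to 61.3 on the 6 Nrf2-/- arrays, against 2144.3 to 3298.2 on the 6 Nrf2+/+ arrays. Lung markers were bright on every array, with at least 12126.4 for surfactant protein Sftpc and at least 22099.6 for the club cell protein Scgb1a1. Heart muscle markers were also bright on every array. Nrf2-/- SpV array 1 stood apart. Its deposited trimmed mean was 73.9, against 182 to 469 on the other 11 arrays, and its ratio of 3' to 5' beta-actin controls, a measure of RNA integrity, was 8.76, against 1.39 to 3.10. Brightness and this ratio also moved with ventilation in Nrf2-/- lungs, since the 3 HVT arrays had trimmed means of 182 to 247 and ratios of 2.21 to 3.10, against 446 and 469 and ratios of 1.52 and 1.39 on SpV arrays 3 and 2. The Nrf2+/+ trimmed means were 279 to 439 after HVT and 316 to 423 after SpV. The Nrf2+/+ ratios were lower after HVT without overlap, at 1.53 to 1.99, against 2.08 to 2.51 after SpV.

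Slc4a1 was lower in HVT than in SpV lungs of both genotypes. For its brighter probe set, 1434502_x_at, the normalized signals were 136.8, 136.5 and 146.6 in Nrf2-/- HVT lungs, against 524.5, 662.3 and 240.6 in Nrf2-/- SpV lungs. They were 56.5, 99.1 and 68.2 in Nrf2+/+ HVT lungs, against 260.7, 201.6 and 386.5 in Nrf2+/+ SpV lungs. The HVT arrays were tightly grouped in Nrf2-/- lungs, and no HVT array reached any SpV array in either genotype. The log2 difference on log2(signal + 16) was -1.54 ± 0.34 (SE) in Nrf2-/- lungs, 2.92-fold lower, and -1.70 ± 0.34 in Nrf2+/+ lungs, 3.25-fold lower. Without Nrf2-/- SpV array 1 the Nrf2-/- value was -1.43 ± 0.37. In Nrf2+/+ HVT lungs 0 of 3 arrays reached a scaled signal of 100, so the level there is dim and the pseudocount pulls the Nrf2+/+ difference towards 0. The suffix x_at marks a probe set whose probes can bind transcripts of related genes.

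The dimmer Slc4a1 probe set, 1416464_at, gave the same order of groups. Its signals were 76.5, 92.1 and 119.4 in Nrf2-/- HVT lungs, against 176.6, 350.3 and 145 in Nrf2-/- SpV lungs. In Nrf2+/+ lungs they were 40.8, 114.7 and 73.2 after HVT, against 220.1, 134.2 and 206.4 after SpV. Again the HVT and SpV arrays did not overlap. The log2 differences were -1.02 ± 0.37 in Nrf2-/- and -1.19 ± 0.37 in Nrf2+/+ lungs. Only 1 of 3 HVT arrays in each genotype reached a scaled signal of 100, so the level after ventilation is near the dim end of the range and a pseudocount of 16 pulls this difference towards 0.

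Alas2 was separated by breathing in Nrf2+/+ lungs, while its Nrf2-/- groups overlapped. Its normalized signals were 777.5, 847.4 and 809.7 in Nrf2-/- HVT lungs, against 529.2, 2763.8 and 1104.9 in Nrf2-/- SpV lungs. In Nrf2+/+ lungs they were 900.8, 1189.1 and 857.7 after HVT, against 2550.9, 2520 and 2799 after SpV. The Nrf2+/+ groups were far apart, with every HVT signal below every SpV signal. In the Nrf2-/- groups SpV array 1 was below all 3 HVT arrays while SpV array 2 was as bright as the Nrf2+/+ controls. The log2 difference was -1.42 ± 0.41 in Nrf2+/+ lungs, 2.67-fold lower, and -0.53 ± 0.41 in Nrf2-/- lungs. The Nrf2-/- value rested on single arrays. It was -1.09 ± 0.29 without Nrf2-/- SpV array 1, the array with the high actin ratio, and 0.08 ± 0.26 without SpV array 2.

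Bpgm was lower after HVT on average for each of its 3 measured probe sets, without overlap for 1 of them in Nrf2-/- and for all in Nrf2+/+ lungs. For 1415865_s_at, its brightest probe set, the signals were 506.9, 423.6 and 262.1 in Nrf2-/- HVT lungs, against 320.7, 708.9 and 467.2 in Nrf2-/- SpV lungs. In Nrf2+/+ lungs they were 274.2, 417.2 and 343.2 after HVT, against 630.7, 656.3 and 845.7 after SpV. The Nrf2+/+ groups did not overlap and the Nrf2-/- groups did. The log2 difference was -1.02 ± 0.30 in Nrf2+/+ lungs, 2.02-fold lower, and -0.29 ± 0.30 in Nrf2-/- lungs. The Nrf2-/- value was -0.57 ± 0.28 without SpV array 1 and -0.01 without SpV array 2.

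The other Bpgm probe sets differed in how they placed the Nrf2-/- arrays. For 1448119_at the signals were 165.7, 155.2 and 136.8 in Nrf2-/- HVT lungs, against 246.6, 279.1 and 199.7 in Nrf2-/- SpV lungs, with no overlap. They were 96.1, 167 and 172.7 in Nrf2+/+ HVT lungs, against 291.6, 203 and 353 in Nrf2+/+ SpV lungs. The log2 differences were -0.61 ± 0.25 and -0.89 ± 0.25 in the Nrf2-/- and Nrf2+/+ lungs. For 1415864_at the signals were 198.5, 187.4 and 187.1 in Nrf2-/- HVT lungs, against 131, 393.7 and 179.5 in Nrf2-/- SpV lungs, which enclose them. They were 138.7, 208.8 and 147.7 in Nrf2+/+ HVT lungs, against 271.5, 232.1 and 459.6 in Nrf2+/+ SpV lungs. This probe set had -0.14 ± 0.35 in Nrf2-/- and -0.86 ± 0.35 in Nrf2+/+ lungs, and the Nrf2-/- value was 0.29 ± 0.29 without SpV array 2 and -0.46 ± 0.33 without SpV array 1. On Nrf2-/- SpV array 1, 1448119_at was above the HVT arrays and both other Bpgm probe sets were not.

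**Figure D1:**
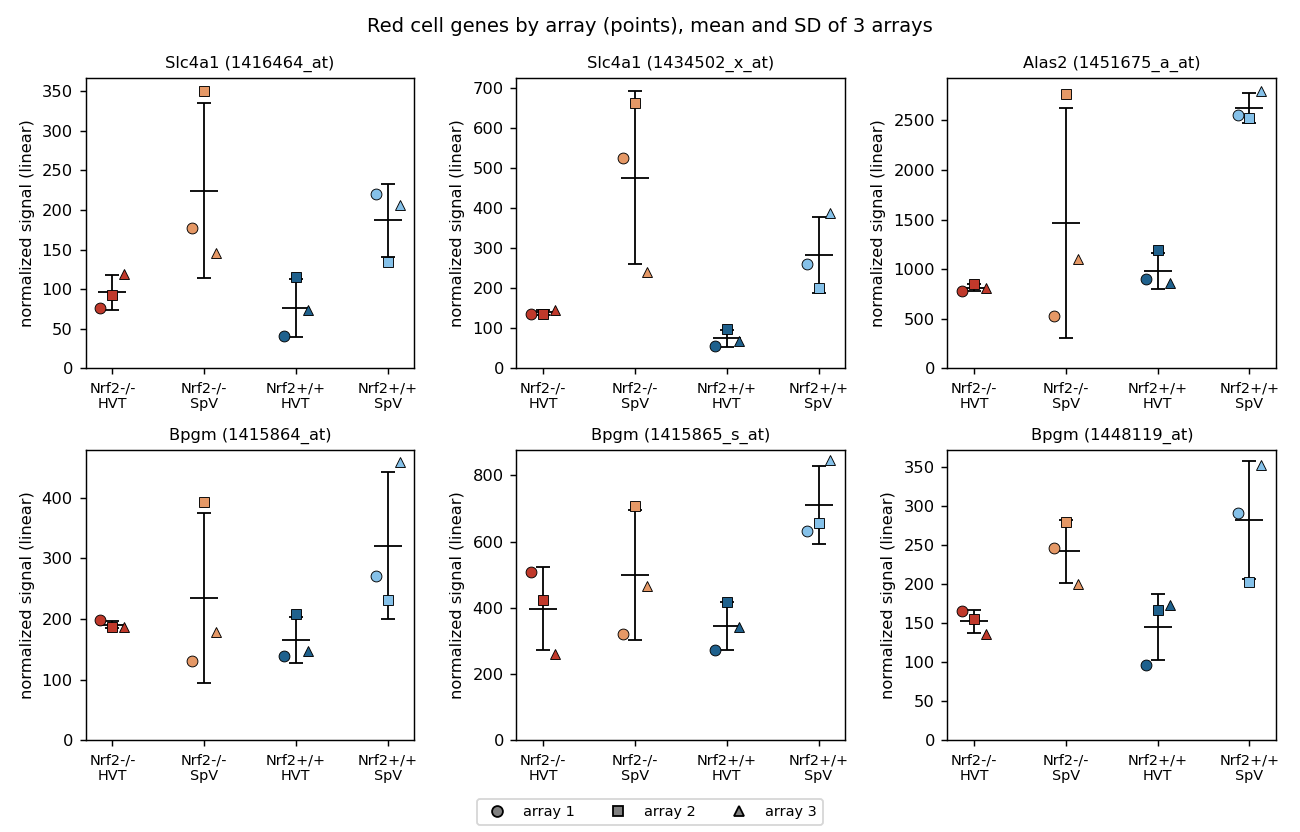
Normalized signal (linear axis from 0) of the 6 measured probe sets on each array, with Nrf2-/- groups left of Nrf2+/+ groups and HVT left of SpV. Symbols mark the array number, and the horizontal mark and bar give the mean and SD of 3 arrays. In Nrf2+/+ lungs the HVT points lie below the SpV points in all 6 panels, while the Nrf2-/- SpV points spread widely, from 529.2 to 2763.8 for Alas2.

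The HVT arrays were below the SpV arrays without overlap for 6 of 6 probe sets in Nrf2+/+ lungs and 3 of 6 in Nrf2-/- lungs. Over all probe sets tested the shares lower without overlap were 8.04% and 7.49%. Since the genes were chosen for being lower, nothing is read from those counts. Averaged over genotypes the log2 differences ranged from -1.62 ± 0.24 for Slc4a1 1434502_x_at, the sixth lowest of 15855 probe sets, to -0.50 ± 0.24 for Bpgm 1415864_at. Alas2 had -0.97 ± 0.29, with 41 probe sets lower. The averages without Nrf2-/- SpV array 1 were -1.58 ± 0.25 for Slc4a1 1434502_x_at, -1.25 ± 0.19 for Alas2 and -0.80 ± 0.19 for Bpgm 1415865_s_at.

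The difference between genotypes in the response, Nrf2-/- minus Nrf2+/+, was estimated but not tested, since it uses the arrays that could have chosen the genes. It was 0.16 ± 0.48 for Slc4a1 1434502_x_at, 0.89 ± 0.58 for Alas2 and 0.72 ± 0.42 for Bpgm 1415865_s_at. Without Nrf2-/- SpV array 1 it was 0.29 ± 0.50, 0.32 ± 0.38 and 0.45 ± 0.38 for those probe sets.

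**Figure D2:**
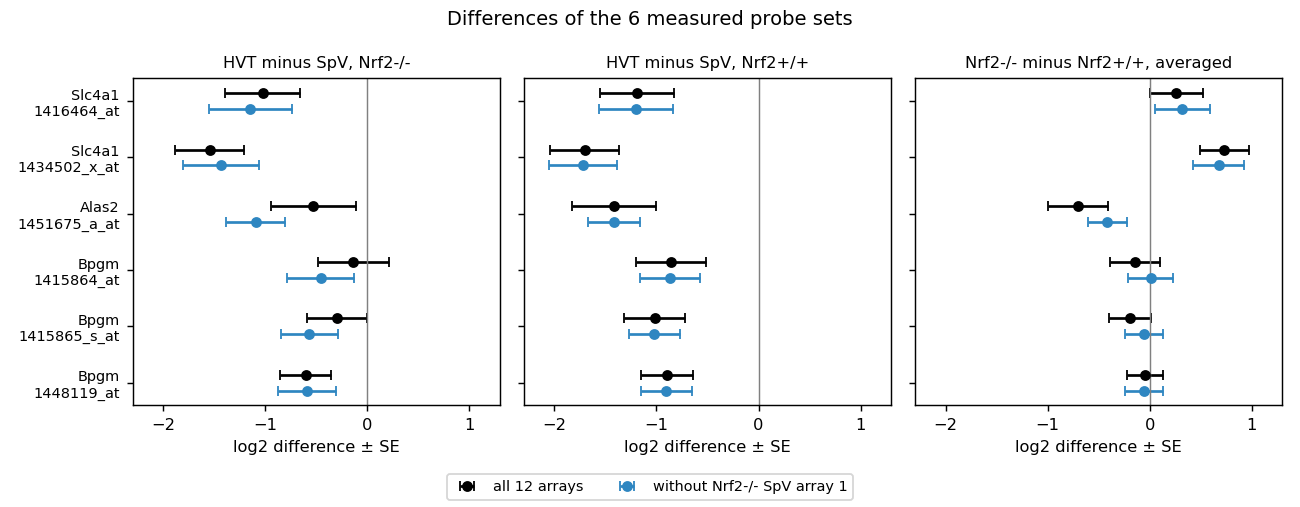
Log2 difference ± SE of the 6 measured probe sets, with HVT minus SpV in Nrf2-/- lungs, HVT minus SpV in Nrf2+/+ lungs and Nrf2-/- minus Nrf2+/+ averaged over breathing. Black points use all 12 arrays and blue points leave out Nrf2-/- SpV array 1, where Alas2 in Nrf2-/- lungs is at -1.09, against -0.53 with all arrays.

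The loss of Nrf2, averaged over both kinds of breathing, was tested with limma over all 15855 probe sets. It is independent of a choice by ventilation only where the groups spread alike, and they did not. The log2 SD of Slc4a1 1434502_x_at was 0.052 in Nrf2-/- HVT lungs, against 0.73 in Nrf2-/- SpV lungs. For Alas2 these were 0.061 and 1.18. The limma and permutation p-values of the 3 genes carry that limit. Of the 6 probe sets, 0 passed an adjusted p of 0.05, in a contrast where 3.27% of all probe sets did, and 2 were under 0.05 without adjustment, against 19.8% of all. The genes did not lean the same way. Slc4a1 1434502_x_at was higher in Nrf2-/- lungs by 0.73 ± 0.24 (limma adjusted p = 0.119), with a 95% interval from 0.21 to 1.25. Alas2 was lower by a log2 difference of -0.70 ± 0.29 (limma adjusted p = 0.211), with an interval from -1.34 to -0.07. An exact two-sided permutation of genotype within each kind of breathing, whose smallest possible p is 0.005, gave unadjusted p = 0.03 for that Slc4a1 probe set and unadjusted p = 0.045 for Alas2.

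The second Slc4a1 probe set had 0.26 ± 0.26 (limma adjusted p = 0.629, exact permutation p = 0.37), and -0.22 when the deposited values were not scaled. Without scaling the median of all probe sets was -0.60 in this contrast, and the values of Slc4a1 1434502_x_at and Alas2 were 0.15 and -1.37. The Bpgm probe sets had -0.15 ± 0.24, -0.19 ± 0.21 and -0.05 ± 0.18, for 1415864_at, 1415865_s_at and 1448119_at, with limma adjusted p of 0.791, 0.658 and 0.923. Their 95% intervals reached from -0.68 at the lowest to 0.38 at the highest.

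Single control arrays moved these values across the threshold. Without an array the groups are unequal in size, and the averaged genotype value then shares error with HVT minus SpV in Nrf2-/- lungs. That ventilation value could have chosen the genes, so the p-values here are descriptions. Without Nrf2-/- SpV array 3 the Slc4a1 1434502_x_at difference was 0.93 ± 0.19 (limma adjusted p = 0.0318), where 2.43% of all probe sets passed. Without Nrf2-/- SpV array 2 the Alas2 difference was -1.005 ± 0.175 (limma adjusted p = 0.0117), where 4.82% passed. Without Nrf2-/- SpV array 1 they were 0.68 ± 0.25 (limma adjusted p = 0.143) and -0.42 ± 0.19 (limma adjusted p = 0.245), where 5.61% passed.

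By breathing, Slc4a1 1434502_x_at had 0.81 ± 0.34 in HVT lungs, a value that rests on the dim Nrf2+/+ HVT arrays and where the 3 Nrf2-/- arrays were above the 3 Nrf2+/+ arrays, and 0.65 ± 0.34 in SpV lungs, where they overlapped. Alas2 had -0.26 ± 0.41 in HVT lungs, where the Nrf2-/- arrays were below the Nrf2+/+ arrays by a small margin, and -1.14 ± 0.41 in SpV lungs. The Alas2 value in SpV lungs was -0.58 ± 0.29 without Nrf2-/- SpV array 1. These values share arrays with the ventilation contrasts and were not tested. Over all probe sets, 11.4% were higher and 13.2% lower without overlap in HVT lungs.

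The group means of Slc4a1 1434502_x_at were 140 ± 5.7 (SD, n = 3) in Nrf2-/- HVT, 475.8 ± 215 in Nrf2-/- SpV, 74.6 ± 22 in Nrf2+/+ HVT and 282.9 ± 94.4 in Nrf2+/+ SpV lungs. Nrf2-/- SpV was thus highest, overlapping Nrf2+/+ SpV just below it, and no other neighbours in that order overlapped. The means of Alas2 were 811.5 ± 35 in Nrf2-/- HVT, 1466 ± 1160.3 in Nrf2-/- SpV, 982.5 ± 180.2 in Nrf2+/+ HVT and 2623.3 ± 153 in Nrf2+/+ SpV lungs. Here Nrf2+/+ SpV was highest and Nrf2-/- HVT lowest, and Nrf2-/- SpV overlapped every other group. The means of Bpgm 1415865_s_at were 397.5 ± 124.5 in Nrf2-/- HVT, 499 ± 196 in Nrf2-/- SpV, 344.9 ± 71.5 in Nrf2+/+ HVT and 710.9 ± 117.5 in Nrf2+/+ SpV lungs. Its order ran from Nrf2+/+ SpV down through Nrf2-/- SpV and Nrf2-/- HVT to Nrf2+/+ HVT, and each group overlapped its neighbour.

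The 3 genes also varied together among arrays of 1 group. After the group means were removed, the correlation over 12 arrays was positive for all 11 pairs of probe sets from different genes, from 0.23 (Alas2 with Bpgm 1448119_at) to 0.86 (Alas2 with Bpgm 1415864_at). It was 0.54 to 0.78 for the 4 pairs within a gene. These are descriptions without a test, since probe sets on 1 array share its RNA and its scaling. Such likeness was not particular to the 3 genes. With their mean, after group means were removed, the 95% quantile of the correlation over all other genes was 0.67. The closest other gene, Gda, had 0.94. Nrf2-/- SpV array 2 was the highest of its group for all 6 probe sets. Nrf2-/- SpV array 1 broke the pattern, with Slc4a1 1434502_x_at 1.39 above its own mean over arrays on the log2 scale and Alas2 at -1.22. On that array the deposited signals before scaling were 77.3 for Slc4a1 and 77.8 for Alas2 and were multiplied by 6.77.

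**Figure D3:**
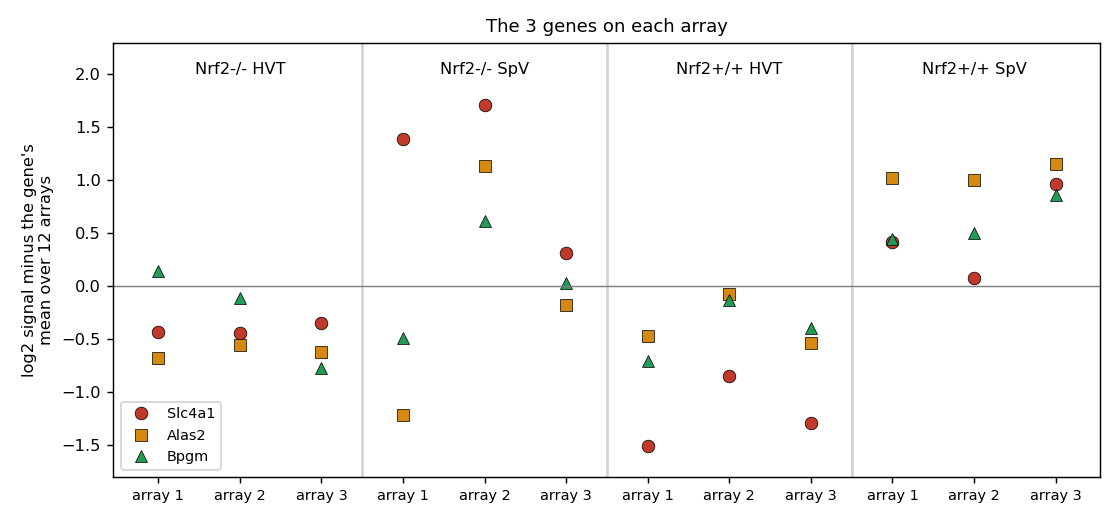
Log2 signal of Slc4a1 (1434502_x_at), Alas2 (1451675_a_at) and Bpgm (1415865_s_at) on each of the 12 arrays, each minus that gene's mean over all arrays. The Nrf2+/+ arrays separate by breathing for all 3 genes, and on Nrf2-/- SpV array 1 Slc4a1 is at 1.39 while Alas2 is at -1.22.

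The genes whose signal followed the mean of the 3 most closely over the 12 arrays were not red cell genes of the lists used here. By Pearson correlation the closest 10 of 9330 other genes were Chordc1, Itih4, Ypel3, Atm, Hey1, Triobp, Erc1, Sdf2l1, Ubqln1 and Elavl1. Their coefficients were between 0.85 and 0.89, while 1% of all genes exceeded 0.74. Chordc1, an HSP90 co-chaperone, had 0.89, and 0.82 after group means were removed. Of the red cell lists, Fech came closest with 0.85 as gene 12, followed by Hbb-b2 with 0.80 as gene 46 and Slc25a37 with 0.75 as gene 85. After group means were removed those had 0.25, 0.82 and 0.31. All arrays share the group structure that chose the members, so the coefficients describe likeness only.

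Other red cell genes were read from 6 lists with 87 entries, chosen with earlier results of these data known. Besides the 3 members, 53 were measured. In the ventilation contrasts 0 of 53 passed, at medians of -0.15 in Nrf2-/- lungs, -0.14 in Nrf2+/+ lungs and -0.11 averaged, against 0.01, -0.02 and 0.00 over all probe sets. Across all probe sets limma called 0%, 0.0252% and 0.126%, with 11.1%, 7.28% and 13.2% at an unadjusted p under 0.05. Lower values were found for 33, 38 and 34 of the 53, and 9, 4 and 7 were under 0.05 without adjustment.

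Among heme synthesis and iron supply genes, 8 of 12 were lower in Nrf2-/- and 9 of 12 in Nrf2+/+ lungs, and 0 passed. Fech encodes ferrochelatase, which inserts iron at the last step of heme synthesis. Its signal was 1561 ± 21.2 in Nrf2-/- HVT lungs, against 2025.6 ± 213.8 in Nrf2-/- SpV lungs. It had 1454 ± 165 in Nrf2+/+ HVT lungs, against 2308.2 ± 231.7 in Nrf2+/+ SpV lungs. Its averaged log2 difference was -0.51 ± 0.10 (limma adjusted p = 0.0776). Slc25a37, the mitochondrial iron importer of erythroid cells, had -0.73 ± 0.21 in Nrf2+/+ (limma adjusted p = 0.378) and -0.21 ± 0.21 in Nrf2-/- lungs (limma adjusted p = 0.758). Alad, which acts just after Alas2, had -0.29 ± 0.19 averaged (limma adjusted p = 0.555). Tfrc, the transferrin receptor, had 0.51 ± 0.17 in Nrf2-/- and -0.21 ± 0.17 in Nrf2+/+ lungs (limma adjusted p = 0.338 and 0.886).

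The membrane list did not follow Slc4a1 as a whole, with 5 of 8 other members lower in Nrf2-/- and 6 of 8 in Nrf2+/+ lungs and 0 passing. Tmod1, which caps actin filaments of the membrane skeleton, had 0.28 ± 0.13 averaged, Ank1, the ankyrin that binds band 3, 0.14 ± 0.15, Dmtn, an actin bundler of the skeleton, -0.17 ± 0.16 and Gypc, a glycophorin, -0.29 ± 0.15. Sptb, the beta-spectrin of the red cell, named after its values were seen, had -0.78 ± 0.37 in Nrf2-/- and -0.80 ± 0.37 in Nrf2+/+ lungs (limma adjusted p = 0.466 and 0.686) at a mean signal of 79.4. Of other defining red cell genes, Epb42, Rhag and Kel were below the filter.

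Hbb-b2, a beta-globin, was the single haemoglobin gene measured. It had 294.2 ± 36.8 in Nrf2-/- HVT lungs, against 370.4 ± 225.5 in Nrf2-/- SpV lungs, a log2 difference of -0.15 ± 0.32 (limma adjusted p = 0.895). It had 301.7 ± 16 in Nrf2+/+ HVT lungs, against 624.2 ± 70.6 in Nrf2+/+ SpV lungs, a difference of -1.01 ± 0.32 (limma adjusted p = 0.45). Its probe set also has the suffix x_at. Hba-a1, Hba-a2, Hba-x, Hbb-bh1 and Hbb-y had probe sets of their own that were below the filter. Another 4 haemoglobin probe sets were assigned to several genes and were not used.

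Glycolytic genes around Bpgm went both ways. In this list 7 of 14 were lower in Nrf2-/- and 11 of 14 in Nrf2+/+ lungs, at medians of 0.01 and -0.06, and 0 passed. Averaged over genotypes, Pgk1, which uses the substrate that Bpgm also takes, had -0.22 ± 0.20, the aldolase Aldoa 0.12 ± 0.15, and the lactate dehydrogenases Ldha and Ldhb 0.06 ± 0.08 and 0.07 ± 0.21. Differences within a genotype were wider, up to 0.63 ± 0.40 for the phosphofructokinase Pfkm in Nrf2-/- (limma adjusted p = 0.592) and -0.68 ± 0.31 for the pyruvate kinase Pklr in Nrf2+/+ lungs (limma adjusted p = 0.683), both named after their values were seen. The Pfkm arrays spread widely, with a mean and SD of 1591 ± 1281 in Nrf2-/- HVT lungs, against 853.1 ± 218.1 in Nrf2-/- SpV lungs.

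Erythroid transcription factors were lower for 4 of 7 in Nrf2-/- and 5 of 7 in Nrf2+/+ lungs, and 0 passed. Zfpm1, a cofactor of Gata1, had -0.61 ± 0.19 averaged (limma adjusted p = 0.203). Tal1, Ldb1 and Lmo2, partners in 1 erythroid complex, had -0.20 ± 0.24, -0.10 ± 0.14 and 0.10 ± 0.20. Klf1 was below the filter. In the list of other red cell and reticulocyte genes, 8 of 11 were lower in Nrf2-/- and 6 of 11 in Nrf2+/+ lungs, and 0 passed. Car2, a carbonic anhydrase of red cells and other cells, had -0.86 ± 0.27 averaged (limma adjusted p = 0.207). The antioxidant Prdx2, the ubiquitin ligase Mkrn1 and the exonuclease Isg20 had -0.27 ± 0.15, -0.20 ± 0.14 and 0.15 ± 0.12.

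The averaged ventilation contrast gave calls once Nrf2-/- SpV array 1 was left out. Of 49 list genes then measured, 6 fell and 0 rose, 12.2% of the list, against 6.23% of all probe sets called. In Nrf2-/- lungs alone 3 fell and 1 rose, 8.16% against 6.43% of all, 24 of 49 were lower and the median was 0.01. In Nrf2+/+ lungs 0 passed, against 0.321% of all. The 6 in the averaged contrast were Car2 at -1.12 ± 0.19 (limma adjusted p = 0.00853), Fech at -0.55 ± 0.10 (limma adjusted p = 0.0103), Hbb-b2 at -0.80 ± 0.16 (limma adjusted p = 0.0155), Zfpm1 at -0.76 ± 0.16 (limma adjusted p = 0.0183), Blvrb at -1.12 ± 0.27 (limma adjusted p = 0.034) and Nfe2, an erythroid and megakaryocytic factor, at -0.86 ± 0.22 (limma adjusted p = 0.0422). With all 12 arrays, Blvrb had a mean of 26.8 in Nrf2-/- HVT lungs, a dim level. Its Nrf2+/+ means were 174.6 after HVT and 179.5 after SpV, so nothing is built on its call.

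Between genotypes, averaged over breathing, 2 of the 53 list genes passed, a share near the 3.27% over all probe sets, so the count says nothing particular to the lists. Ank1 rose in Nrf2-/- lungs by 0.61 ± 0.15 (limma adjusted p = 0.0435), with means of 542.6 and 503.9 in Nrf2-/- HVT and SpV lungs, against 358.5 and 322.3 in Nrf2+/+ HVT and SpV lungs. Blvrb, biliverdin reductase B, fell by 1.56 ± 0.38 on the log2 scale (limma adjusted p = 0.0458), with means of 26.8 and 115.4 in Nrf2-/- HVT and SpV lungs, against 174.6 and 179.5 in Nrf2+/+ HVT and SpV lungs. Blvrb passed the filter on low values through the other groups and not through Nrf2-/- HVT, so nothing is built on this call, and with no filter 0 list genes passed. Summed heart muscle markers also differed by genotype without overlap, at 33915.9 to 46507.1 in Nrf2-/- lungs, against 21118.2 to 31761.9 in Nrf2+/+ lungs, and their part in these genotype values, those of Slc4a1, Alas2 and Bpgm included, was not tested. Over the 12 fits that left out 1 array each, Ank1 passed in 3 and Blvrb in 4, and the number of list genes called ranged from 0 to 4. Without Nrf2-/- SpV array 1, where 8.16% of the list passed against 5.61% of all probe sets, the 4 were Ank1, Blvrb, Alad at -0.54 ± 0.13 (limma adjusted p = 0.0301) and Tfrc at -0.42 ± 0.11 (limma adjusted p = 0.0469).

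**Figure D4:**
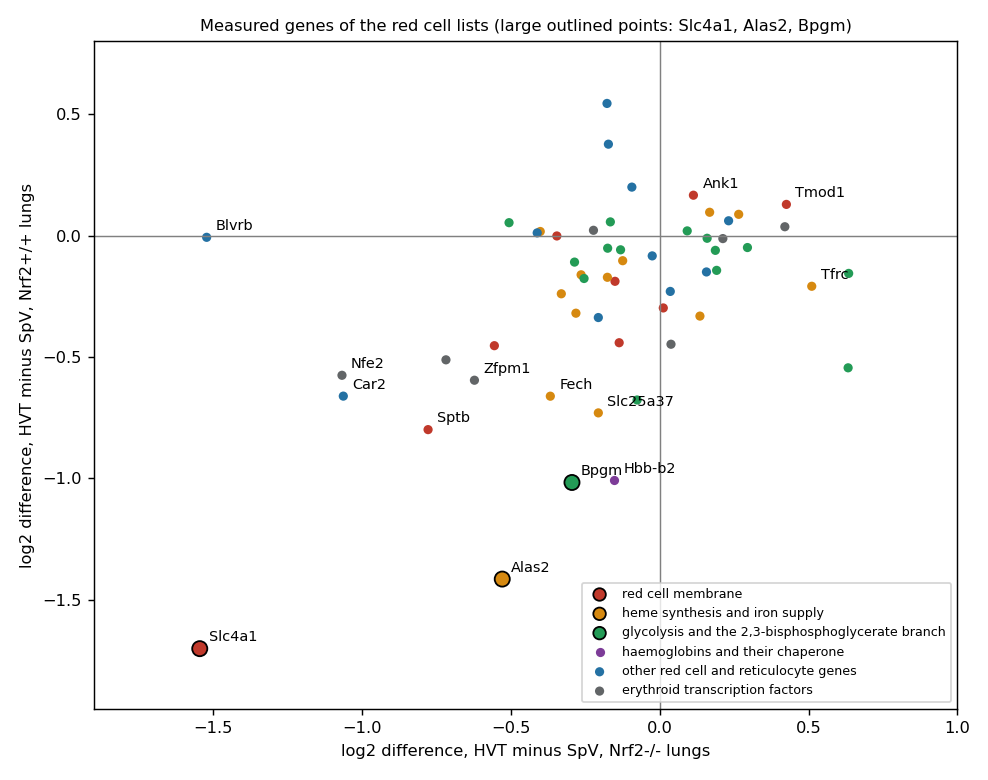
Log2 difference HVT minus SpV of each measured gene of the red cell lists, in Nrf2-/- lungs (horizontal) and Nrf2+/+ lungs (vertical), coloured by list. Slc4a1 is lowest on both axes at -1.54 and -1.70, Alas2 and Bpgm sit low on the vertical axis, and most other genes lie nearer 0 on both.

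Marker lists of other cells were set beside these values without a test. T and NK cell markers were lower for 5 of 6 genes in Nrf2-/- and 6 of 6 in Nrf2+/+ lungs, with summed signals of 568.1 to 1089.6 in Nrf2-/- HVT against 860.7 to 1720.5 in Nrf2-/- SpV, and 722.6 to 1198.1 in Nrf2+/+ HVT against 1223.4 to 1477.6 in Nrf2+/+ SpV. Neutrophil markers were lower for 7 of 8 and 6 of 8 genes, with sums of 3861.7 to 6143 in Nrf2-/- HVT against 6476.1 to 22706.1 in Nrf2-/- SpV, and 4010.7 to 8754.8 in Nrf2+/+ HVT against 5623.6 to 8151.1 in Nrf2+/+ SpV. Endothelial markers were lower for 6 of 6 genes in both genotypes, with sums of 6787.3 to 8260.2 in Nrf2-/- HVT against 7805.1 to 13151 in Nrf2-/- SpV, and 12559.4 to 19019 in Nrf2+/+ HVT against 16639.4 to 22244.3 in Nrf2+/+ SpV. Platelet markers were lower for 4 of 7 in both, with sums of 3462.5 to 6254.3 in Nrf2-/- HVT against 3514 to 5058.1 in Nrf2-/- SpV, and 2071.9 to 2673.8 in Nrf2+/+ HVT against 2317.6 to 3122.7 in Nrf2+/+ SpV. Alveolar type II markers were lower for 3 of 4 in Nrf2-/- and 4 of 4 in Nrf2+/+ lungs. Alveolar type I markers were lower for 3 of 4 in both, and club cell markers for 1 of 3 in both. Over all probe sets tested, 48.7% were lower in Nrf2-/- and 53.1% in Nrf2+/+ lungs, and nothing is read from these counts. Between HVT and SpV, the neutrophil sums overlapped in Nrf2+/+ lungs and the T and NK cell sums in Nrf2-/- lungs. The endothelial and platelet sums overlapped in both genotypes. Heart muscle markers were lower for 0 of 5 genes in Nrf2-/- and 4 of 5 in Nrf2+/+ lungs. Their sums were 41404.4 to 46507.1 in Nrf2-/- HVT against 33915.9 to 37306.4 in Nrf2-/- SpV, without overlap. B cell, monocyte and lung macrophage markers were lower for 2 of 3, 2 of 3 and 1 of 2 genes in Nrf2-/- lungs. In Nrf2+/+ lungs they were lower for 3 of 3, 3 of 3 and 2 of 2. The part of blood content, other cell markers, brightness and RNA integrity in the values of Slc4a1, Alas2 and Bpgm was not tested.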

How the data were processed

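Lung RNA of each sample was read on 1 of 12 expression arrays (Affymetrix Murine Genome 430A). The authors deposited 1 intensity per probe set and array, on a linear scale, and name GCOS 1.4 per the submitters' processing notes. The series' design text describes scaling to an average of 500, but the deposited trimmed means run from 73.9 to 469. Each array was therefore scaled to a mean of 500 after trimming 2% at each end, then quantile normalized, and 16 was added before log2. The 64 control probe sets were left out, and probe sets with a scaled signal of 100 on at least 3 arrays were kept. Annotation named 1 gene for 20380 probe sets, several for 691 and none for 1555, and 4 haemoglobin probe sets with several genes were not used.

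Group means were fitted in limma 3.58.1 (R 4.3.3) with an intensity trend, 8 residual and 4.38 prior degrees of freedom, tests two-sided, adjusted by Benjamini and Hochberg over 15855 probe sets and called under 0.05. The number of arrays limits precision. A gene with several probe sets was read in the lists from the brightest. Named were all member probe sets, list genes called in a ventilation or the averaged genotype contrast, up to 4 of the brightest in each list, and the 10 closest genes by correlation. Members and lists were chosen with earlier results of these data known. The fit was tested on simulated data. Alternatives changed the normalization, pseudocount, filter, variance model, array weights, pairing, covariate and arrays. The labels do not say whether numbers shared by replicates mark pairs, and the reported fit did not pair them. Of 18 same-numbered pairs, 6 had correlated deviations over 0.1, which cannot decide the question.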

Additional observations from a re-analysis of the deposited data

How the results depend on the processing

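With all 12 arrays, HVT minus SpV kept its sign for the 6 member probe sets under each alternative that could be run for them (the filter of 200 left Alas2 and Bpgm 1415865_s_at, and 1 probe set per gene left the brightest). It moved by less than the spread between replicates in each except array weights, which gave -1.08 for Slc4a1 1434502_x_at in Nrf2-/- lungs (the weights stopped short of their convergence tolerance). Without scaling, the median of all probe sets was -0.60 for Nrf2-/- minus Nrf2+/+ and Slc4a1 1416464_at reversed to -0.22. Bpgm 1415864_at reversed to 0.013 with the beta-actin ratio as covariate. Exact permutation gave unadjusted p under 0.05 for the same differences of 0.73 (Slc4a1 1434502_x_at) and -0.70 (Alas2), with the limit that the groups spread unequally.

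Leaving out 1 array at a time, Nrf2-/- minus Nrf2+/+ ranged from 0.58 to 0.93 for Slc4a1 1434502_x_at, -1.005 to -0.42 for Alas2, -0.36 to 0.0098 for Bpgm 1415864_at and -0.17 to 0.038 for Bpgm 1448119_at (also above 0 at 0.015, 0.0088 and 0.020). HVT minus SpV in Nrf2-/- lungs ranged from -1.09 to 0.081 for Alas2 and -0.46 to 0.29 for Bpgm 1415864_at. These positive ventilation values came without Nrf2-/- SpV array 2. The number of list genes called ranged from 0 to 4 in Nrf2-/- and 0 to 6 averaged for ventilation, and from 0 to 2 in HVT, 0 to 1 in SpV and 0 to 4 averaged for genotype. Each highest count was reached without Nrf2-/- SpV array 1, where in the same order 6.43%, 6.23%, 4.74%, 1.94% and 5.61% of all probe sets passed.

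Array weights called 7, 4 and 9 list genes for ventilation in Nrf2-/-, in Nrf2+/+ and averaged, 1, 7 and 5 for genotype in HVT, in SpV and averaged, and 1 for the interaction, where 14.1%, 2.91%, 13.4%, 5.42%, 10.7%, 12.3% and 2.18% of all probe sets passed. The actin covariate called 2 in Nrf2+/+ and 5 averaged for ventilation, and 1, 1 and 5 for genotype in HVT, in SpV and averaged, where 0.429%, 4.77%, 1.34%, 3.68% and 5.78% of all passed. For averaged genotype, 2 in the reported fit, the count was 1 without scaling, with a pseudocount of 1, and with a filter of 200. In those fits 0.807%, 3.15% and 4.4% of all probe sets passed. The count was 0 with no filter or no intensity trend. Without scaling 1 was called for genotype in HVT, where 0.177% of all passed. The cause was not tested.

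Replicate numbers were not used as pairs in the reported fit. Correlations of same-numbered deviations ran from -0.18 to 0.38, and 8 of 12 arrays correlated best with their own number, a hint from the data and not the design. With the replicate block 695 probe sets were called for averaged genotype, against 518, with 1 list gene, and the members' limma adjusted p were 0.131 and 0.618 for Slc4a1, 0.155 for Alas2 and 0.638 to 0.923 for Bpgm.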
